A study of Mus musculus with 18 samples.

Results

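The genes described here are the 7 mouse Cd209 lectin genes on the arrays (Cd209a, Cd209b, Cd209c, Cd209d, Cd209e, Cd209f and Cd209g) and Cd207, which encodes langerin. They were taken by name from the probe sets that carry a single gene symbol, with the probe set of highest mean where a gene had more than 1, and make up 8 of the 19752 genes so covered. These genes, and the gene lists used below, were chosen with earlier results of these data known. A share of all genes set beside a count of them is thus a description and no independent test of an excess. All 8 passed the filter on low values (2 or more arrays with a log2 intensity over the 30th percentile of that array), which 15365 genes passed; a gene high in 1 population alone can pass it. Gene expression was measured on 18 Affymetrix arrays, 9 from mice with BRAFV600E switched on by CD11c-Cre and 9 from littermates without Cre. CD11c-Cre acts in cells that express the integrin CD11c, which dendritic cells and several kinds of macrophage carry, so the mutation is not limited to 1 cell type. Cells came from 4 populations.

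Every mouse carried the conditional BRAFV600E(CA-flox) allele. The BRAF groups also carried CD11c-Cre(positive) and the WT groups were CD11c-Cre(neg), so the controls hold the same floxed allele without the recombinase. BRAF and WT bone marrow derived dendritic cells (BMDC), with 3 arrays each, were grown from femur marrow of mice aged 5 weeks, left untreated, and sorted as live CD11c+CD11b+ cells. BRAF and WT cells of 3 organ populations (lung CD103+, lung CD11b+ and liver CD11b+), with 2 arrays per genotype and population, were sorted from organs of unmanipulated mice aged 14 weeks. No further gate is given for the organ sorts. The labels number the replicates without saying that they are separate animals or cultures, and they do not say whether animals were pooled. The spread behind every p-value is thus that between these arrays and may be technical only.

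C-type lectins of this kind hold a carbohydrate recognition domain. In several of them it binds mannose- or fucose-bearing glycans in a calcium-dependent way. Several also pass what they bind into the cell for degradation and antigen presentation. These traits need not hold for every mouse Cd209 lectin. The mouse Cd209 genes are relatives of human DC-SIGN. Cd209a is found on dendritic cells, including those derived from monocytes. Cd209b, also called SIGN-R1, is known from marginal zone and lymph node sinus macrophages, where it takes up bacterial polysaccharides. Cd209c (SIGNR2), Cd209d (SIGNR3), Cd209e (SIGNR4), Cd209g (SIGNR7) and Cd209f (SIGNR8) are their less studied relatives. Langerin builds the Birbeck granules of Langerhans cells, is also carried by mouse lung CD103+ dendritic cells, and marks the lesions of human Langerhans cell histiocytosis, a disease in which BRAFV600E is common.

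The 7 Cd209 genes lie in a row on chromosome 8 (GRCm38.p6), in the order Cd209a, Cd209e, Cd209d, Cd209b, Cd209c, Cd209f and Cd209g, from chr8:3743395-3748984 for Cd209a to chr8:4134246-4137707 for Cd209g. Cd209e spans chr8:3847973-3854286, Cd209b chr8:3917655-3926841 and Cd209f chr8:4102784-4105838. Cd207 lies on chromosome 6 at chr6:83671207-83677857. The sequences just upstream of the annotated genes are shown for the 4 members with a genotype difference that passed the test in 1 population. They come from RefSeq's GRCm38.p6 promoter table, are written 5′ to 3′ on the gene's own strand, and carry in capitals each match to an AP-1 motif (TGANTCA) or an ETS motif (CCGGAA, which reads TTCCGG on the opposite strand). AP-1 and ETS factors are known targets of the MEK and ERK kinases. The stretch of Cd209f is shorter, with 176 bases against 250 for the others, because the annotated gene begins upstream of the table's start site.
Cd209f (chr8:4105839-4106014, - strand): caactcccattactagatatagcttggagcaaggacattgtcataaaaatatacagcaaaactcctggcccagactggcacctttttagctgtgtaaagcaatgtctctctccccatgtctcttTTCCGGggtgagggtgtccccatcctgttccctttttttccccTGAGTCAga
Cd209b (chr8:3926842-3927091, - strand): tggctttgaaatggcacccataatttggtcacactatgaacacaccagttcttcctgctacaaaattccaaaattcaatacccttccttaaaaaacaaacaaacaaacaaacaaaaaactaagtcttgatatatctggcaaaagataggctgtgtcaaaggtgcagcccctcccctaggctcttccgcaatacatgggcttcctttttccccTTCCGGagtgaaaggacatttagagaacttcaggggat
Cd209e (chr8:3854287-3854536, - strand): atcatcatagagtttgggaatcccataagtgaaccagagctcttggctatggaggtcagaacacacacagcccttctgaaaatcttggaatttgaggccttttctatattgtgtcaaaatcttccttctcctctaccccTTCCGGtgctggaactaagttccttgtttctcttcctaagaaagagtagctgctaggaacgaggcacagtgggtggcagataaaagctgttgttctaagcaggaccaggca
Cd207 (chr6:83677858-83678107, - strand): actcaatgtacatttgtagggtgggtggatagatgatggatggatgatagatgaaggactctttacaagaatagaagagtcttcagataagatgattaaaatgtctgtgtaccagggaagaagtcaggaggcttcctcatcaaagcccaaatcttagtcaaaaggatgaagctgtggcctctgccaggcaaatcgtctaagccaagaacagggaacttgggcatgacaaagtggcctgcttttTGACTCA

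Counted back from the table's start site, the AP-1 match lay at -83 to -77 in Cd209f and at -7 to -1 in Cd207. The ETS match lay at -126 to -121 in Cd209f, at -38 to -33 in Cd209b and at -111 to -106 in Cd209e. In the 250 bases before the start site, 3 of the 8 genes held an AP-1 match (Cd209f, Cd209g and Cd207) against 6.7% of 32851 promoters. An ETS match was held by 5 (Cd209a, Cd209b, Cd209e, Cd209f and Cd209g) against 12%. The AP-1 and ETS matches of Cd209f and Cd209g lie in 1 shared run of 180 identical bases, so these 2 genes are not separate cases. A STAT6 motif (TTC and GAA with 4 bases between them) was found in Cd209e alone of the 8, at -79 to -70, against 5.9% of promoters, and a RUNX motif (TGTGGT) in Cd209d alone, against 14.0%. Cd209c held none of the 4 motifs. The windows of Cd209c and Cd209g lay wholly inside their annotated genes, so the sequence upstream of these 2 genes was not read. All motifs were searched on both strands. These are matches of letters and not measured binding sites.

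Cd209f and Cd209g are close copies of each other in this stretch: 258 of the 300 bases around the start site were identical (86.0%), with an unbroken identical run of 180 bases. The next most alike pair, Cd209b and Cd209d, shared 60.7%. The 29 bases around the AP-1 match are shown for both copies because they are the same letter for letter.
Cd209f (chr8:4105830-4105858, - strand): tttttttccccTGAGTCAgagaagaatcg
Cd209g (chr8:4134628-4134656, + strand): tttttttccccTGAGTCAgagaagaatcg
Probe sequences were not used here, so how far the probe sets of Cd209f, Cd209g and the other copies pick up each other's transcripts was not tested.

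The arrays bore out the sorts in outline. Braf was at log2 8.39 to 9.12 on the BRAF arrays and at 8.09 to 9.22 on the WT arrays, which does not check the genotype because the mutation need not change the amount of transcript. Itgax, which encodes CD11c, ran from 10.66 to 12.18 over all 18 arrays. Itgae, which encodes CD103, was at 10.60 to 12.18 on the lung CD103+ arrays and at 5.74 to 7.65 on all others. Itgam, which encodes CD11b, was at 9.32 to 11.92 outside the lung CD103+ arrays. Marker genes of other cells were present in the organ groups. The lung epithelial gene Sftpc was at 7.52 to 10.53 on all 8 lung arrays, against 4.95 to 6.57 elsewhere. The plasma cell gene Jchain was at 7.02 to 9.10 on the 4 lung CD11b+ arrays. In liver CD11b+ cells Jchain was at 10.16 and 12.15 on the WT arrays and at 7.16 and 4.96 on the BRAF arrays. Some arrays stood apart from their pair. The Kupffer cell gene Cd5l reached 10.33 on BRAF lung CD11b+ replicate 1, against 4.48 to 7.24 elsewhere. Of 2 other Kupffer cell genes, Timd4 was at 9.13 on that array against 7.36 on replicate 2, but Clec4f was at 6.63 against 6.36. WT lung CD11b+ cells had Clec4f at 6.24 and 6.10. Which cells these transcripts came from was not tested. The hepatocyte gene Alb reached 10.98 on BRAF lung CD103+ replicate 1, against 6.57 on replicate 2. Jchain was at 10.01 on BRAF lung CD103+ replicate 1 and 4.92 on replicate 2, and at 8.68 on WT lung CD103+ replicate 1 and 4.25 on replicate 3. The T cell gene Cd3e was at 8.62 on WT lung CD103+ replicate 1, against 6.46 on WT replicate 3.

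**Figure D1:**
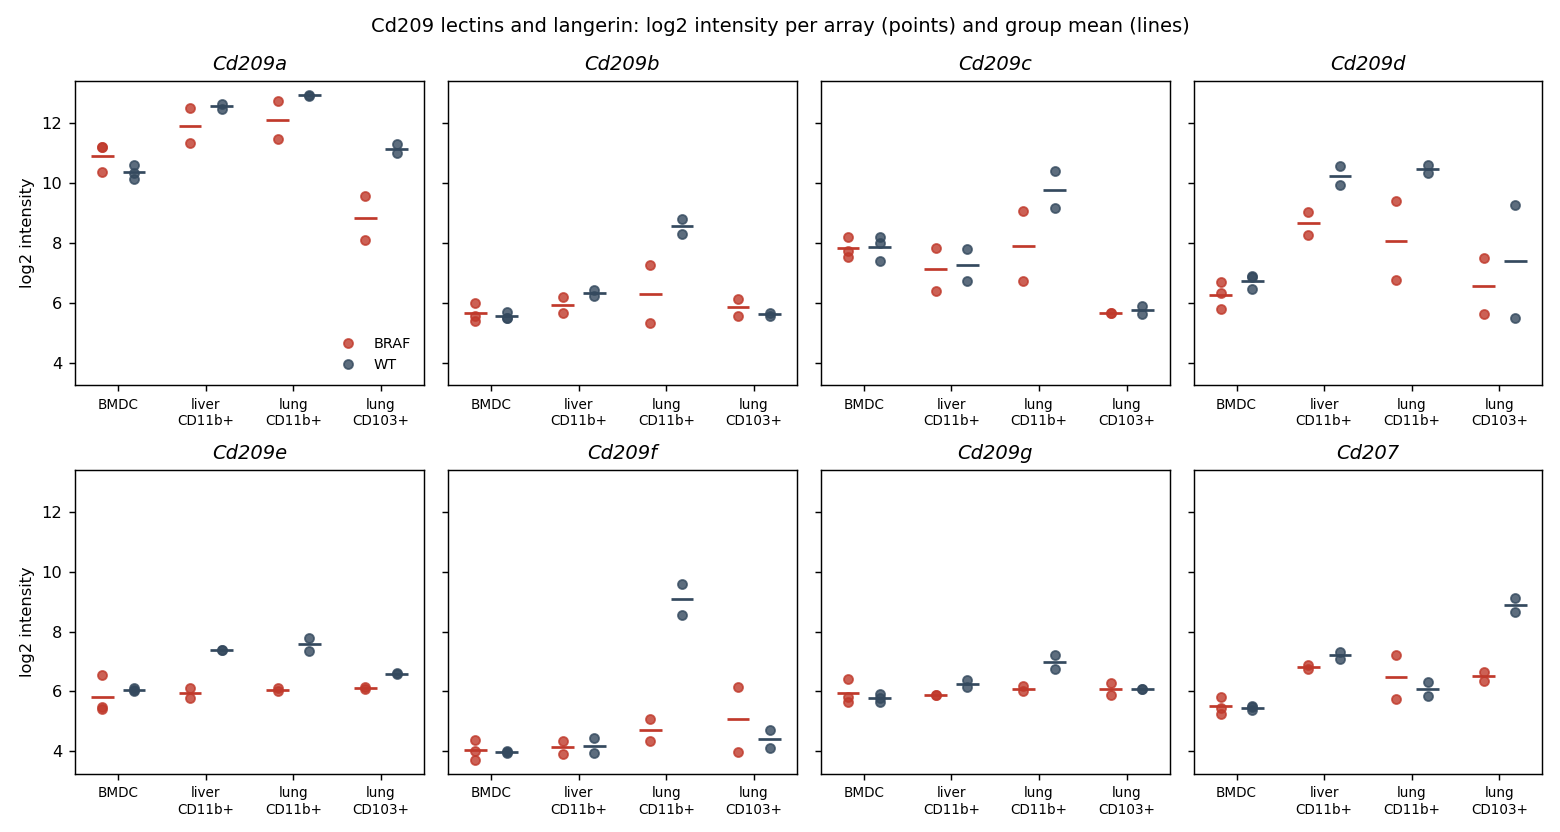
Log2 intensity (vertical axes) of the 8 lectin genes on each array (points) with group means (lines), BRAF in red left of WT in blue, for the 4 populations. Cd209f stood at 9.59 and 8.57 on the WT lung CD11b+ arrays and at 6.15 or below on the other 16, and Cd207 was highest on the WT lung CD103+ arrays.

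In WT mice Cd209f and Cd209b were higher in lung CD11b+ cells than in each of the other populations, and langerin was higher in lung CD103+ than in lung CD11b+ cells. Cd209a, Cd209d and Cd209e had similar values in WT liver and WT lung CD11b+ cells (differences of -0.36 ± 0.49, -0.22 ± 0.97 and -0.18 ± 0.30, SE). Set against WT lung CD11b+ cells, 4 of the 8 genes passed the test in WT lung CD103+ cells, 2 in WT liver CD11b+ cells and 6 in WT BMDC (limma's moderated test, Benjamini-Hochberg adjusted p under 0.05 over all genes tested). The same test called 3.75%, 2.08% and 8.14% of all genes in these 3 contrasts. In lung CD103+ cells 1 member was higher (1.38% of all genes were) and 3 were lower (2.37% were). In liver and BMDC every called member was lower, where 1.82% and 4.47% of all genes were. The contrasts share the WT lung CD11b+ arrays, and BMDC also differ from the organ cells in culture, sort and age. Interstitial macrophage markers were lower against lung CD11b+ cells too, with 11 of 11 lower and 10 called in lung CD103+ cells (median -3.25), 11 of 11 lower and 2 called in liver (median -1.75), and 10 of 11 lower and 7 called in BMDC (median -2.49). B cell markers were lower for 8 of 8 tested in each contrast, with 6 called in BMDC and 0 in the others. The part of these cells in the lectin values was not tested. Without WT lung CD103+ replicate 1, the 4 calls of that contrast held (-4.98 for Cd209f, -4.15 for Cd209c, -2.89 for Cd209b and 3.06 for Cd207, with adjusted p from 0.000474 to 0.0106).

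Cd209f was at log2 4.10 and 4.72 in WT lung CD103+ cells, at 3.94 and 4.43 in WT liver CD11b+ cells and at 3.95 to 4.0 in WT BMDC, against 9.59 and 8.57 in WT lung CD11b+ cells. Only the WT lung CD11b+ arrays rose above the lowest part of their array's range, at its 79.2nd and 88.7th percentile, while the other WT groups stayed at or under the 11.5th. Of all 18 arrays, Cd209f was over the 30th percentile on 3: these 2 and BRAF lung CD103+ replicate 1. It would not have passed the filter without the WT lung CD11b+ group, where it is high. The difference from WT lung CD11b+ cells was -4.67 ± 0.53 in lung CD103+ cells (SE; adjusted p = 0.000104), -4.90 ± 0.53 in liver (adjusted p = 0.000452) and -5.11 ± 0.48 in BMDC (adjusted p = 1.04e-05). The means of the 3 lower groups (4.41, 4.18 and 3.97) lay no further apart than the SD of the lung CD103+ pair (0.44).

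Cd209b was likewise highest in lung CD11b+ cells. It averaged log2 5.62 ± 0.07 in WT lung CD103+ cells, 6.34 ± 0.13 in WT liver CD11b+ cells (SD, n = 2 each) and 5.56 ± 0.11 in WT BMDC (SD, n = 3), against 8.56 ± 0.36 in WT lung CD11b+ cells (SD, n = 2). All 3 differences passed the test, at -2.94 ± 0.45 (adjusted p = 0.00119), -2.22 ± 0.45 (adjusted p = 0.0229) and -3.00 ± 0.41 (SE; adjusted p = 0.000261). The liver call was not stable: of the 4 arrays compared, only leaving out WT liver replicate 1 kept it (adjusted p = 0.0317).

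Cd209c also separated the WT lung populations, at log2 5.90 and 5.63 in WT lung CD103+ cells against 9.16 and 10.39 in WT lung CD11b+ cells (difference -4.01 ± 0.65, SE; adjusted p = 0.00182). Its levels in WT liver (6.73 and 7.81) and WT BMDC (7.39 to 8.20) lay between them, with differences from lung CD11b+ cells that missed the threshold (-2.50 ± 0.65, adjusted p = 0.0603, and -1.91 ± 0.59, adjusted p = 0.062). Cd209d had 9.28 and 5.48 in WT lung CD103+ cells, 10.58 and 9.92 in WT liver and 6.45 to 6.89 in WT BMDC, against 10.35 and 10.59 in WT lung CD11b+ cells. The higher of the 2 WT lung CD103+ values came from replicate 1, the array with plasma and T cell transcripts. That array also had more of the type 2 dendritic cell gene Sirpa (9.92 against 6.70 on replicate 3) and the macrophage gene Vsig4 (8.42 against 4.34). Its Itgam value was level with that of replicate 3 (6.87 against 6.90). The lung CD103+ difference of Cd209d was -3.09 ± 0.97 (adjusted p = 0.114), with -4.99 (adjusted p = 0.004) when that array was left out and -1.20 (adjusted p = 0.887) when its pair was. The BMDC difference of Cd209d passed the test (-3.74 ± 0.88; adjusted p = 0.0155) but lost the call without WT BMDC replicate 2 (adjusted p = 0.054), WT lung CD11b+ replicate 3 (0.0883) or WT lung CD11b+ replicate 1 (0.147), whereas liver and lung CD11b+ arrays overlapped.

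Cd209a, Cd209e and Cd209g were lower in WT BMDC than in WT lung CD11b+ cells, with differences of -2.57 ± 0.45 (adjusted p = 0.00189), -1.51 ± 0.27 (adjusted p = 0.00258) and -1.19 ± 0.23 (SE; adjusted p = 0.00442) on the log2 scale. Without WT lung CD11b+ replicate 3 the calls of Cd209e (adjusted p = 0.0564) and Cd209g (0.0919) were lost. Cd209a in WT mice was at 10.13 to 10.61 in BMDC, 10.99 and 11.30 in lung CD103+ cells, 12.66 and 12.48 in liver and 12.91 and 12.95 in lung CD11b+ cells. The lung CD103+ difference of Cd209a (-1.78 ± 0.49) had an adjusted p of 0.0609, and of 0.0119 with the lung replicate number as a block.

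Langerin ran the other way. Cd207 was at log2 8.67 and 9.14 in WT lung CD103+ cells, 7.10 and 7.32 in WT liver and 5.37 to 5.52 in WT BMDC, against 6.31 and 5.85 in WT lung CD11b+ cells. It was higher in lung CD103+ than in lung CD11b+ cells by 2.82 ± 0.36 (SE; adjusted p = 0.000319), and no array of the 2 groups overlapped. The liver and BMDC values did not pass the test against lung CD11b+ cells (1.13 ± 0.36, adjusted p = 0.104, and -0.62 ± 0.33, adjusted p = 0.344).

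In lung CD11b+ cells with active BRAF, 3 Cd209 genes fell, Cd209f by the most. On both BRAF arrays all 7 Cd209 genes lay below both WT arrays, where 24.8% of all genes tested did so, and Cd207 was the 1 member whose genotypes overlapped. The test called 3 of the 8 genes (Cd209f, Cd209b and Cd209e, all lower in BRAF), against 0.338% of all genes, or 0.267% counting lower calls alone. Because the members were chosen with earlier results known, these shares do not test for an excess. The median difference of the 8 was -1.69 on the log2 scale, against 0 over all genes, and -0.95 without BRAF replicate 1. In bulk samples, fewer cells of a type and less RNA per cell cannot be told apart.

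**Figure D2:**
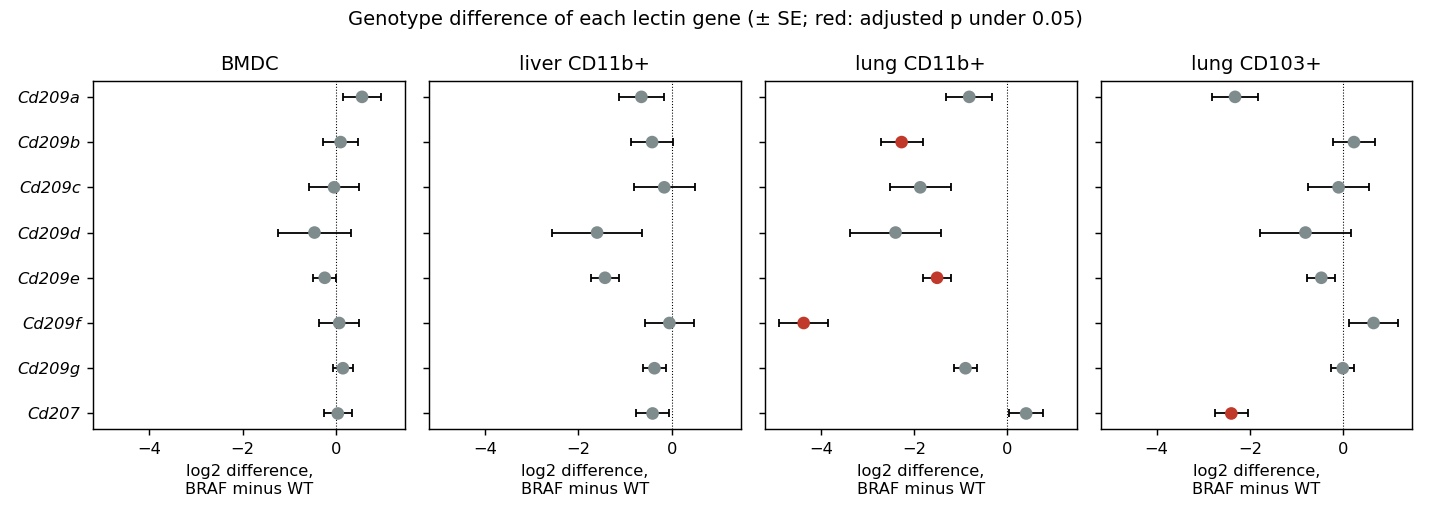
Log2 difference, BRAF minus WT (horizontal axes, with SE), of each lectin gene in each of the 4 populations; red points have an adjusted p under 0.05. Called genes were Cd209f (-4.37), Cd209b (-2.27) and Cd209e (-1.51) in lung CD11b+ cells and Cd207 (-2.40) in lung CD103+ cells.

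Cd209f was at log2 4.35 and 5.07 on the BRAF lung CD11b+ arrays, against 9.59 and 8.57 on the WT arrays. Without these WT arrays it would not have passed the filter. The genotypes lay far apart, with the BRAF values at the 7.3rd and 16.7th percentile of their arrays, near the level of this gene in the other populations. The difference was -4.37 ± 0.53 (SE; adjusted p = 0.00224; 95% interval -5.50 to -3.25), and because the deposited values give no detection call, it is not known how much of the BRAF signal is background. The call held on leaving out each of the 4 arrays in turn, with differences from -4.88 to -3.86.

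Cd209b, the polysaccharide receptor of sinus and marginal zone macrophages, had log2 5.31 and 7.26 on the BRAF arrays, against 8.30 and 8.81 on the WT arrays. The groups did not overlap, but BRAF replicate 1 lay well under replicate 2. Cd209b fell by 2.27 (SE 0.45; adjusted p = 0.0471). Leaving out BRAF replicate 1 ended the call (-1.30; adjusted p = 0.304), as did leaving out WT replicate 3 (-2.53; adjusted p = 0.151) or WT replicate 1 (-2.01; adjusted p = 0.49).

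Cd209e was at log2 6.01 and 6.11 on the BRAF arrays, against 7.79 and 7.35 on the WT arrays (SD 0.07 and 0.31). It fell by 1.51 (SE 0.30; adjusted p = 0.0481). The call was lost on leaving out any 1 of the 4 arrays, where the difference was -1.73 to -1.29 with adjusted p from 0.114 to 0.376, and with the lung replicate number as a block (adjusted p = 0.0595).

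The other 4 Cd209 genes missed the threshold. Cd209c had log2 6.72 and 9.08 in BRAF against 9.16 and 10.39 in WT cells (-1.87 ± 0.65, SE; adjusted p = 0.408). Cd209d had 6.75 and 9.40 in BRAF against 10.35 and 10.59 in WT cells (-2.40 ± 0.97, SE; adjusted p = 0.565). In both genes BRAF replicate 1 lay far under BRAF replicate 2, as it did for Cd209b, and the values moved with the array left out. Without BRAF replicate 1, Cd209c differed by -0.69, Cd209d by -1.08 and Cd209a by -0.19 (adjusted p = 1 for each). Without BRAF replicate 2 they differed by -3.06 (adjusted p = 0.0377), -3.72 (0.22) and -1.46 (0.591). Cd209g had 6.01 and 6.17 in BRAF against 7.22 and 6.75 in WT cells (-0.90 ± 0.25; adjusted p = 0.21), and Cd209a had 11.47 and 12.75 in BRAF against 12.91 and 12.95 in WT cells (-0.82 ± 0.49; adjusted p = 0.925). Before adjustment 6 of the 8 genes had a p under 0.05, against 6.71% of all genes. Cd207 had 7.23 and 5.74 in BRAF against 6.31 and 5.85 in WT lung CD11b+ cells (0.40 ± 0.36; 95% interval -0.38 to 1.17).

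The summed levels of several cell types' markers also differed between the genotypes in lung CD11b+ cells, and their part in the result was not tested. The summed intensity of 9 type 2 dendritic cell markers was 5922 and 6864 on the BRAF arrays against 12165 and 12363 on the WT arrays, with 9 of 9 lower and 0 called. The 12 mature dendritic cell markers summed to 4364 and 7163 in BRAF against 14444 and 14527 in WT, and 3 were called lower, among them the migration receptor Ccr7 (-3.11 ± 0.34; adjusted p = 0.00141). B cell markers summed to 764 and 1086 in BRAF against 1823 and 2625 in WT, with 8 of 8 tested genes lower and 0 called. The 11 interstitial macrophage markers summed to 11381 and 24715 in BRAF against 15841 and 24417 in WT, with 10 of 11 lower (median -0.37) and 0 called. The 6 markers of marginal zone and sinus macrophages, the cells Cd209b is known from, summed to 1938 and 4791 in BRAF against 2202 and 2424 in WT, with 0 called. Kupffer cell markers summed to 8335 and 24218 in BRAF against 4354 and 5475 in WT, and 1 of 12, the fatty acid binding protein gene Fabp7, was called higher (5.28 ± 0.83; adjusted p = 0.0123). BRAF replicate 1 had the macrophage complement receptor gene Vsig4 at log2 11.94 against 5.87 on BRAF replicate 2 and 7.90 and 7.98 in WT. The Kupffer cell gene Clec4f was at 6.63 there, against 6.36 on BRAF replicate 2. BRAF replicate 1 also had the lower values of all 7 Cd209 genes, by little for Cd209e (6.01 against 6.11) and Cd209g (6.01 against 6.17). Without that array Cd209f differed by -4.01 (adjusted p = 0.0293).

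The neighbouring genes at the Cd209 locus did not pass the test in lung CD11b+ cells. On the Cd209a side, Fcer2a, the low-affinity IgE receptor, differed by -0.93 ± 0.56 (SE; adjusted p = 0.934) and the lectin gene Clec4g by -0.94 ± 0.41 (adjusted p = 0.647). On the Cd209g side Evi5l differed by -0.35 ± 0.21 (adjusted p = 0.917), and 4932443L11Rik was not tested. Along the row from Cd209a to Cd209g, the Cd209 genes differed by -0.82, -1.51, -2.40, -2.27, -1.87, -4.37 and -0.90.

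**Figure D3:**
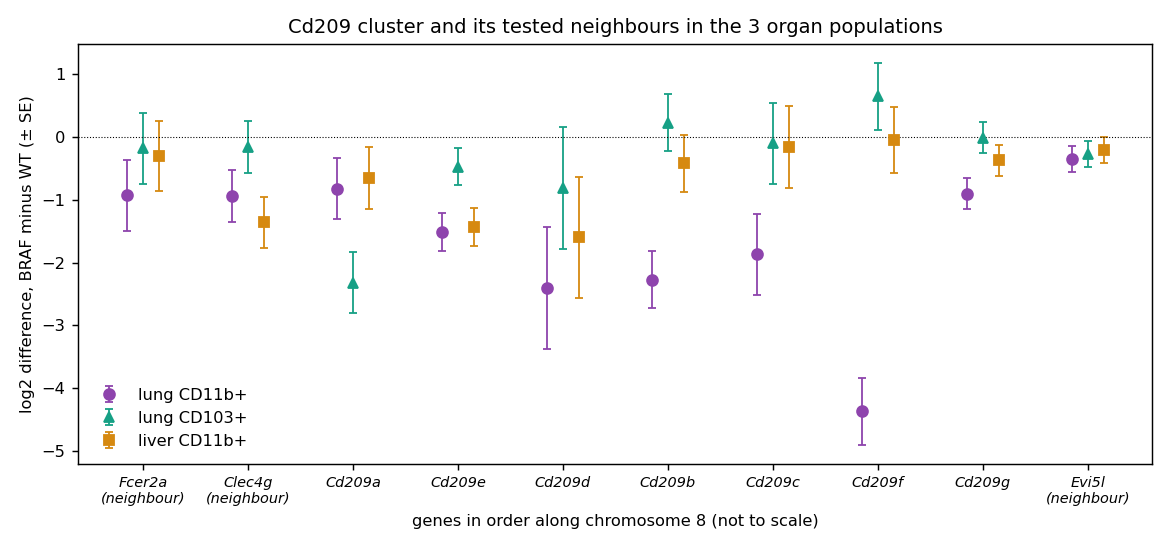
Log2 difference, BRAF minus WT (vertical axis, with SE), of the 7 Cd209 genes and their 3 tested neighbours in chromosome order (horizontal axis, not to scale), for lung CD11b+ (circles), lung CD103+ (triangles) and liver CD11b+ cells (squares). In lung CD11b+ cells the neighbours lay between -0.94 and -0.35 and the Cd209 genes between -4.37 and -0.82.

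In lung CD103+ cells with active BRAF, langerin was lower. Cd207 was at log2 6.64 and 6.36 on the BRAF arrays, against 8.67 and 9.14 on the WT arrays, and the genotypes did not overlap. It fell by 2.40 (SE 0.36; adjusted p = 0.0191; 95% interval -3.18 to -1.63) and was the 1 member of 8 called, against 0.0846% of all genes, or 0.039% counting lower calls alone. Before adjustment 2 of the 8, Cd207 and Cd209a, had a p under 0.05, against 4.26% of all genes. The BRAF values lay near those of WT lung CD11b+ cells (6.31 and 5.85) and at the 46.5th and 49.4th percentile of their arrays. Leaving out WT replicate 1 (-2.64; adjusted p = 0.0118) or BRAF replicate 2 (-2.26; adjusted p = 0.0468) kept the call. Leaving out WT replicate 3 (-2.17; adjusted p = 0.16) or BRAF replicate 1 (-2.54; adjusted p = 0.113) ended it, as did fitting these 4 arrays alone (adjusted p = 0.372).

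Cd209a, the dendritic cell lectin of the family, had log2 8.09 and 9.56 on the BRAF lung CD103+ arrays, against 10.99 and 11.30 on the WT arrays, again without overlap. The difference of -2.32 ± 0.49 (SE; 95% interval -3.37 to -1.28) had an adjusted p of 0.117, and of 0.022 with the lung replicate number as a block. It was called without BRAF replicate 2 (-3.06; adjusted p = 0.0201), and without BRAF replicate 1 it differed by -1.59 (adjusted p = 1). Cd209e was at 6.09 and 6.14 in BRAF against 6.57 and 6.61 in WT cells (-0.47 ± 0.30; adjusted p = 1). These 3 of 8 members lay below both WT arrays on both BRAF arrays, as 19.3% of all genes did.

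The remaining members were low or uneven in lung CD103+ cells. Cd209b, Cd209c and Cd209g differed by 0.23 ± 0.45, -0.10 ± 0.65 and -0.01 ± 0.25 (SE). Cd209f was at log2 6.15 and 3.98 in BRAF against 4.72 and 4.10 in WT cells (0.65 ± 0.53), and Cd209d at 7.5 and 5.63 in BRAF against 9.28 and 5.48 in WT cells (-0.81 ± 0.97). In both genes and both genotypes replicate 1 was the higher array, and both replicates 1 carried transcripts of other cells. Without BRAF replicate 1 Cd209f differed by -0.43 and Cd209d by -1.75, and without WT replicate 1 by 0.96 and 1.08 (adjusted p = 1 for each).

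Genes that define type 1 dendritic cells were present on all 4 lung CD103+ arrays. Xcr1, their chemokine receptor, was at log2 12.22 and 12.43 in BRAF against 12.58 and 12.42 in WT cells, and Clec9a, their dead-cell receptor, at 12.02 and 12.34 in BRAF against 12.28 and 12.47 in WT cells. The 10 markers of this type summed to 30691 and 38325 in BRAF against 37993 and 45386 in WT, with 8 of 10 lower (median -0.22) and 0 called. The 12 mature dendritic cell markers summed to 4764 and 11570 in BRAF against 12612 and 14519 in WT, with 12 of 12 lower and Ccr7 called (-2.03 ± 0.34; adjusted p = 0.0421). Natural killer cell markers summed to 1109 and 2214 in BRAF against 2483 and 2878 in WT. The 11 interstitial macrophage markers summed to 2894 and 11896 in BRAF against 866 and 2334 in WT, with 11 of 11 higher and 0 called. The 10 monocyte markers summed to 8744 and 12118 in BRAF against 5318 and 5442 in WT, and 1, the Fc receptor gene Fcgr4, was called higher (3.71 ± 0.64; adjusted p = 0.0436). Kupffer cell markers summed to 4019 and 8385 in BRAF against 1398 and 2879 in WT, with 3 of 12 lower. Of these, Hpgd was called higher (2.78 ± 0.34, adjusted p = 0.00484). The 11 alveolar macrophage markers summed to 4550 and 12657 in BRAF against 1173 and 5482 in WT, with 4 of 11 lower and 0 called. Itgam was at 8.39 and 8.21 in BRAF against 6.87 and 6.90 in WT cells (1.41 ± 0.42; adjusted p = 0.377). The part of these cells in the langerin and Cd209a values was not tested. The neighbours of Cd207 did not pass the test: Stambp, Clec4f, Vax2 and Atp6v1b1 differed by -0.18, 0.07, -0.21 and -0.24.

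**Figure D4:**
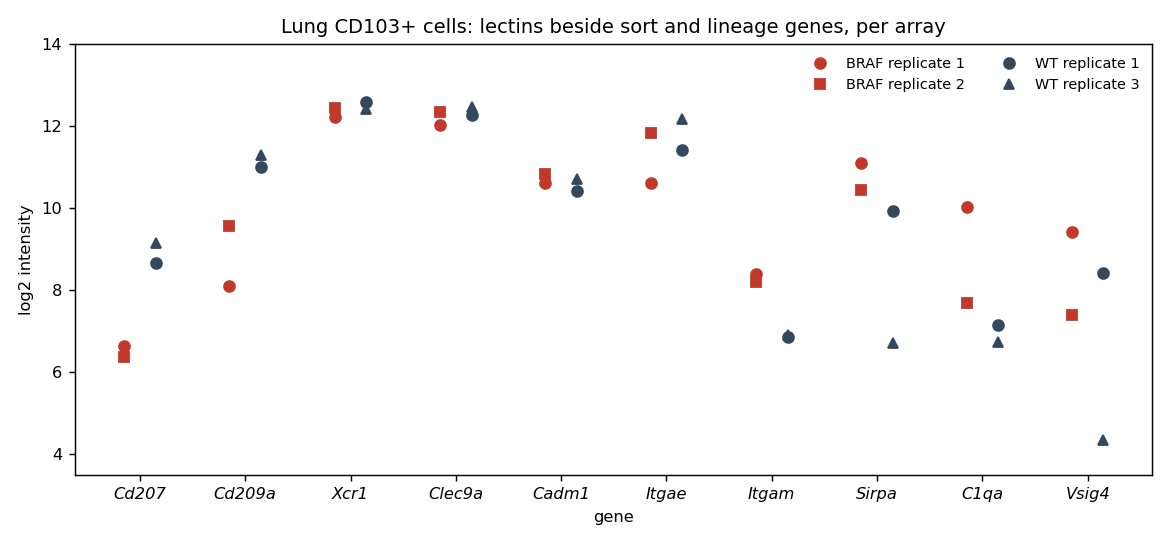
Log2 intensity (vertical axis) on each of the 4 lung CD103+ arrays (BRAF red, WT blue; symbols mark the replicate number) of Cd207, Cd209a, 4 genes of the CD103+ type 1 dendritic cell and 4 genes of other myeloid cells. Cd207 and Cd209a separated the genotypes, Xcr1 stayed between 12.22 and 12.58 on all 4 arrays, and Itgam was at 8.39 and 8.21 in BRAF against 6.87 and 6.90 in WT.

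In liver CD11b+ cells 0 of the 8 genes passed limma's test, against 0.215% of all genes, and 1 (Cd209e) had an unadjusted p under 0.05, as 14.1% of all genes did. All 8 differences were negative, which 43.7% of all genes shared, and in 5 genes (Cd209b, Cd209d, Cd209e, Cd209g and Cd207) both BRAF arrays lay below both WT arrays, as they did for 15.8% of all genes. Cd209e was at log2 5.79 and 6.13 on the BRAF arrays, against 7.37 and 7.40 on the WT arrays. The difference of -1.43 ± 0.30 (SE; 95% interval -2.07 to -0.79) had an adjusted p of 0.0685. Cd209d had 8.28 and 9.02 in BRAF against 10.58 and 9.92 in WT cells (-1.60 ± 0.97; adjusted p = 0.443). Cd209a had 12.50 and 11.34 in BRAF against 12.66 and 12.48 in WT cells (-0.65 ± 0.49; adjusted p = 0.534). Cd207 had 6.87 and 6.74 in BRAF against 7.10 and 7.32 in WT cells (-0.41 ± 0.36; 95% interval -1.18 to 0.37).

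Markers of other cells differed beside these values in liver, and their part in them was not tested. Plasma cell markers summed to 2629 and 3500 in BRAF against 3910 and 9046 in WT, with 6 of 7 lower (median -1.31) and Tnfrsf17 called (-1.88 ± 0.35; adjusted p = 0.049). Mature dendritic cell markers summed to 2785 and 4743 in BRAF against 5481 and 6730 in WT, with 9 of 12 lower and 0 called. Other lists were higher in BRAF. Neutrophil markers summed to 1311 and 7625 in BRAF against 739 and 1000 in WT, with 3 of 11 lower and 0 called. Kupffer cell markers summed to 4998 and 9338 in BRAF against 3192 and 4263 in WT, with 6 of 12 lower. Of these, Fabp7 was called higher (5.38 ± 0.83, adjusted p = 0.0214). The mast cell gene Cpa3 was called lower (-1.66 ± 0.26, adjusted p = 0.0214), and Clec9a differed by -1.76 ± 0.54 (adjusted p = 0.198).

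In BMDC 0 of the 8 genes passed limma's test, against 0.521% of all genes, 0 had an unadjusted p under 0.05, against 6.65%, and the genotypes overlapped for all 8. Over all genes the BRAF arrays lay wholly below the WT arrays for 9.08% and wholly above them for 6.99%. Cd209a was at log2 11.19, 10.37 and 11.20 on the BRAF arrays, against 10.61, 10.13 and 10.34 on the WT arrays. The low BRAF value is replicate 2, an array of narrow spread, and the difference was 0.56 ± 0.40 (SE; 95% interval -0.29 to 1.41). Cd209e, at 5.49, 6.55 and 5.42 in BRAF against 6.05, 6.12 and 6.01 in WT cells, showed the same array apart from the other 2. With limma's array weights, which count that array less, both were called (0.84 for Cd209a, adjusted p = 0.0137, and -0.59 for Cd209e, adjusted p = 0.000767), but these weights called 10.8% of all genes. Leaving that array out altogether called neither (0.83 for Cd209a, adjusted p = 1, and -0.60 for Cd209e, adjusted p = 0.181), and leaving out any other BMDC array called 0 of the 8. Cd207 was at 5.43, 5.82 and 5.24 in BRAF against 5.52, 5.49 and 5.37 in WT cells (0.04 ± 0.30; 95% interval -0.60 to 0.67).

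Taken as the mean of the 4 populations, Cd209e was the 1 member called, against 0.989% of all genes, or 0.501% counting lower calls alone. It fell by 0.91 (SE 0.14, adjusted p = 0.00719). The differences were -1.51 ± 0.30 in the lung CD11b+ population, -1.43 ± 0.30 in liver, -0.47 ± 0.30 in lung CD103+ and -0.24 ± 0.25 in BMDC (SE). The mean thus came mostly from lung CD11b+ and liver cells. Cd209e was a low signal, between the 26.0th and 67.9th percentile of its arrays. The call held on leaving out each of the 18 arrays in turn, with differences from -1.0 to -0.86. In the same contrast 12 of 12 mature dendritic cell markers were lower and 7 were called (median -0.68), and their part in the Cd209e value was not tested. Cd209d, Cd209f and Cd209a averaged -1.32 ± 0.46, -0.93 ± 0.25 and -0.81 ± 0.23 with adjusted p of 0.281, 0.119 and 0.147, and Cd207 averaged -0.59 ± 0.17 (adjusted p = 0.15).

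Whether the BRAF difference itself changed between populations was tested with a moderated F test over the 4. Cd209f alone of the 8 passed (adjusted p = 0.0302), against 0.124% of all genes. Its WT values outside lung CD11b+ cells were log2 3.94 to 4.72, so low that hardly any fall could be measured there. Given the fall in lung CD11b+ cells, the test cannot show that BRAF acts differently in the other populations. Its difference in lung CD11b+ cells was more negative than in lung CD103+ cells by -5.02 ± 0.75 (SE; adjusted p = 0.0555) and than in liver by -4.32 ± 0.75 (adjusted p = 0.281), and neither pairwise contrast passed. For Cd207 the F test gave an adjusted p of 0.102 and the lung CD11b+ minus lung CD103+ contrast 2.80 ± 0.51 (adjusted p = 0.29). Cd209b gave -2.50 ± 0.63 in that contrast (adjusted p = 0.834). The lung CD103+ fall of langerin and the lung CD11b+ fall of Cd209b were thus not shown to differ between populations.

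Genes around the lectins were read from lists of partners. Of 16 tested genes for the signalling of DC-SIGN and its induction, 0 passed limma's test in any of the 4 populations, with medians of -0.17 (BMDC), 0.20 (liver), -0.31 (lung CD11b+) and -0.19 (lung CD103+). Unadjusted p was under 0.05 for 4 of them in lung CD11b+, 2 in lung CD103+, 1 in liver and 0 in BMDC samples. Over all genes the shares with an unadjusted p under 0.05 were 6.71% (lung CD11b+), 4.26% (lung CD103+), 14.1% (liver) and 6.65% (BMDC), and they stand behind each such count for the lists that follow. In lung CD11b+ cells the kinase scaffold gene Ksr1 differed by -0.61 ± 0.25 (SE; adjusted p = 0.582) and its relative Ksr2 by 0.93 ± 0.27 (adjusted p = 0.229). Of 7 genes for cell-borne ligands 0 passed limma's test and 1 in BMDC and 2 in lung CD103+ cells had an unadjusted p under 0.05, with Lamp1, a lysosomal membrane protein, at 1.93 ± 0.42 in lung CD103+ cells (adjusted p = 0.142) and Icam1, an adhesion ligand, at -0.98 ± 0.33 in BMDC (adjusted p = 0.466).

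Of 22 genes of the Langerhans cell programme, 1 passed in lung CD11b+ cells: the tight junction gene Cldn1 fell by 3.64 (SE 0.66; adjusted p = 0.0294). Runx3, a transcription factor that Langerhans cells need, differed by -1.49 ± 0.33 there (adjusted p = 0.0781). In lung CD103+ cells, where langerin fell, 0 of the 22 passed, 3 had an unadjusted p under 0.05, and the median was 0.04. The values there included Epcam at -1.01 ± 0.46, E-cadherin (Cdh1) at 1.73 ± 0.46 and Csf1r, the receptor Langerhans cells depend on, at 1.74 ± 0.48 (adjusted p = 1, 0.274 and 0.309). In BMDC Epcam differed by -1.62 ± 0.38 (adjusted p = 0.0872).

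Of 29 other lectin genes tested, 1 was called in each lung population and it rose: Colec12, a scavenger receptor with a lectin domain, was higher by 3.18 ± 0.39 in lung CD11b+ cells (SE; adjusted p = 0.00224) and by 2.87 ± 0.39 in lung CD103+ cells (adjusted p = 0.00732). In lung CD103+ cells 12 of the 29 had an unadjusted p under 0.05 with a higher value in BRAF and 0 with a lower one, against 4.26% of all genes in either direction. Among these, the mannose receptor Mrc1 differed by 3.48 ± 0.75 (adjusted p = 0.128) and the beta-glucan receptor Clec7a by 2.32 ± 0.43 (adjusted p = 0.0575). The median of the 29 was 0.47 in lung CD103+ cells, against -0.08 over all genes, and 0.33 in lung CD11b+ cells, against 0. The interstitial macrophage, monocyte and Kupffer cell sums were also higher in BRAF lung CD103+ cells, and their part in this was not tested.

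The genes whose pattern over the 18 arrays was most like each member are given by Pearson's r, as a description over arrays that share groups and preparation. Cd209f was most like Cd4 (0.897), Cd209b (0.887) and Slco2b1 (0.886), and Cd209g most like Cd4 (0.933), Camk2n1 (0.918) and Cd209f (0.879). Cd209b was closest to Wnt11 (0.907). Cd209d was closest to Cd7 (0.897), Cd209c to Cyp2ab1 (0.892), Cd209a to Bend4 (0.884) and Cd209e to Apol7c (0.867), a gene on the mature dendritic cell list. Cd207 was closest to BC051142 (0.855), and its r with the Cd209 genes ran from -0.593 for Cd209c to 0.334 for Cd209e.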

How the data were processed

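RNA was measured on 18 Affymetrix arrays: BRAF and WT cells of 4 populations, with 3 arrays per BMDC group and 2 per organ group. Per the labels' protocols, Trizol was used to extract the RNA, which was then biotin-labelled. What the authors deposited is linear intensity per probe set, and array medians lie between 93.7 and 113.2. The sources used here do not give their normalization. Arrays have no read depth, and their number limits the precision.

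Everything else was computed here. The log2 of the deposited intensity was taken with no added constant and no further normalization. GEO's platform annotation gave 1 symbol to 21425 of 24922 probe sets, several to 1399 and listed none for 2098. RefSeq's gene table held the Entrez number of 21347, which changed 0 symbols. For 921 genes with more than 1 probe set, that of highest mean was used. limma 3.58.1 in R 4.3.3 fitted 8 group means to the 18 arrays at once (10 residual degrees of freedom, prior 4.8), since 6 of 8 groups hold 2 arrays. Adjusted p is Benjamini-Hochberg over 15365 genes, called under 0.05. The error after a difference is the SE and after a group mean the SD. Plots were drawn with matplotlib 3.10.9 in Python 3.11.15, on tables from pandas 2.3.3 and numpy 2.4.6. The fitting code was tried on simulated data with independent normal errors. Such data hold no odd or linked arrays, so that trial does not bear on the calls given here. The arrays of narrowest spread were BRAF BMDC replicate 2 and WT liver replicate 3 (interquartile range 1.9 and 1.92 in log2, against 2.41 to 2.99 on the other 16).

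The members and gene lists were chosen with earlier results of these data known. Named genes are all 8 members, Braf, Itgax, Itgam and Itgae, the 3 genes most like each member, 2 array neighbours on each side of both loci, called genes and up to 4 of smallest p per list and contrast, and defining markers. The text gives a selection, and Cd5l and Vsig4 were singled out after their values were seen.

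To see whether replicate numbers pair arrays, each array's deviation from its group mean was correlated with that of the array of the same number in another group. For lung CD11b+ with lung CD103+ the r was 0.22 in BRAF and 0.159 in WT, so the lung results were also fitted with the number as a blocking factor. In groups of 2 such an r is the same for both pairs by construction. For BMDC the r was 0.469, -0.231 and -0.399, and the numbers were not taken as pairs. Alternatives were other normalizations, filters, probe set rules, priors, array weights and array sets, including leaving out each array in turn.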

Additional observations from a re-analysis of the deposited data

Results flagged for a closer look

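Cd209f passed the test of whether the BRAF difference changed between the 4 populations (moderated F test in limma, adjusted p = 0.0302). This gene passed the filter on low values only through the WT lung CD11b+ arrays, where it is high. BRAF minus WT was -4.37 (log2) in the lung CD11b+ population, 0.65 in the lung CD103+ population, -0.05 in liver and 0.07 in BMDC. In the last 3 the WT values of Cd209f were log2 3.94 to 4.72, at or under the 11.5th percentile of their arrays. Hardly any fall could be measured from that level, so the test cannot show that BRAF acts differently there. On leaving out each of the 18 arrays in turn, the F test kept its side of the threshold in 9 fits, with adjusted p from 0.000388 to 0.151. Without WT lung CD11b+ replicate 3 it was 0.151 and without BRAF lung CD11b+ replicate 1 it was 0.107. With groups of 2 or 3 arrays, no array was tested as an outlier within its group.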

How the results depend on the processing

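The 8 members gave 72 results and 1224 values under the alternatives, of which 1105 kept their direction and side of the threshold, 43 reversed, 41 passed the threshold newly and 35 no longer passed. The fall of Cd209f in lung CD11b+ cells was called under all 14 alternatives run for it, and that of Cd209e in the mean of the populations under all 26. The cause of the changes below was not tested. With 2 arrays per group, a fit without 1 of them assumes that the lone array varies like the other groups. No detection call was used, so low signals cannot be set apart from background.

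Members called numbered 0 in BMDC (2 with array weights), 0 in liver (1 with quantile normalization, 1 without the 2 arrays of narrowest spread), 3 in lung CD11b+ (1 to 3 on leaving out each array) and 1 in lung CD103+ cells (0 with only the groups compared, 0 to 2 on leaving out each array). The mean of the populations gave 1 (1 to 2 on leaving out each array). The WT contrasts with lung CD11b+ gave 4 for lung CD103+ (8 with array weights), 2 for liver (1 with array weights, 1 without the narrow arrays, 1 to 3 on leaving out each array) and 6 for BMDC (3 to 6). The F test gave 1 (3 with array weights, 0 without the narrow arrays, 0 to 3 on leaving out each array). In lung CD11b+ cells Cd209b was not called after quantile normalization (-2.15; adjusted p = 0.0547), median centring (-2.31; 0.0534) or with only the groups compared (-2.27; 0.18), and Cd209e not without the filter (0.0525).

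Genes called overall were 80 in BMDC (1656 with array weights, 44 with only the groups compared, 20 to 103 on leaving out each array), 33 in liver (59 with quantile normalization, 18 with the mean of probe sets, 1 with array weights, 7 with only the groups compared, 15 to 358), 52 in lung CD11b+ (369 with array weights, 149 without the narrow arrays, 7 to 97), 13 in lung CD103+ (0 with only the groups compared, 21 without the narrow arrays, 3 to 96) and 152 in the mean (270 with quantile normalization, 324 without the narrow arrays, 67 to 280). The WT contrasts with lung CD11b+ called 576 genes for lung CD103+ (1280 with array weights, 916 without the narrow arrays, 867 averaged over genotypes, 251 to 446 on leaving out each array), 319 for liver (196 with array weights, 91 without the narrow arrays, 14 to 2093) and 1250 for BMDC (4668 with array weights, 4195 with only the groups compared, 2106 without the narrow arrays, 446 to 770). The F test called 19 (11 with median centring, 74 with array weights, 36 without the narrow arrays, 5 to 88).

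With the lung replicate number as a block, members called were 2 in lung CD11b+ cells, where Cd209e was lost (adjusted p = 0.0595), and 2 in lung CD103+ cells, where Cd209a was gained (0.022). Genes called were 80 and 40. In WT lung CD103+ minus WT lung CD11b+ cells Cd209a was also gained (0.0119). The BMDC numbers did not pair the arrays; with them as a block 52 genes and 0 members were called. No paired analysis was possible within liver or within 1 lung population because the genotypes there share fewer than 2 numbers.

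Signs turned in results that had missed the threshold. In BMDC, Cd209b was -0.06 with quantile normalization and with array weights, -0.08 without the narrow arrays and -0.08 to 0.22 on leaving out each array. Cd209c was 0.07 with quantile normalization, 0.10 without the narrow arrays and -0.28 to 0.12 on leaving out each array. Cd209f was -0.09, -0.02, -0.04 and -0.11 with quantile normalization, median centring, array weights and without the narrow arrays, and -0.11 to 0.23 on leaving out each array. Cd209g was -0.08 without the narrow arrays and -0.08 to 0.31. Cd207 was -0.12, -0.05, -0.10 and -0.13 under the same 4 settings and -0.13 to 0.16. In liver, Cd209f was 0.10 with quantile normalization, 0.02 with median centring and -0.30 to 0.20 on leaving out each array, and Cd209c -0.88 to 0.57. In lung CD11b+ cells Cd207 was -0.35 to 1.14. In lung CD103+ cells Cd209g was 0.00 with quantile normalization, 0.02 with median centring and -0.20 to 0.19 on leaving out each array, where Cd209b was -0.06 to 0.52, Cd209c -0.23 to 0.03, Cd209d -2.71 to 1.08 and Cd209f -0.43 to 1.73. In WT liver minus WT lung CD11b+ cells, Cd209d was 0.07 with quantile normalization, 0.18 averaged over genotypes and -0.55 to 0.11, and Cd209e was 0.01 with quantile normalization and -0.41 to 0.04.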
